A study of Mus musculus with 9 samples.

Results

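The unfolded protein response and the folding machinery of the endoplasmic reticulum (ER) were read in choroid plexus, the tissue of the brain ventricles that secretes cerebrospinal fluid, from old mice with and without apolipoprotein E (ApoE), a lipid-carrying protein. The members were 35 named genes, and their readings were the probe sets that the platform annotation assigned to exactly 1 of those symbols. That gave 86 of the 45101 probe sets on the array, for 35 of the 18194 genes with such a probe set. Tissue of apoE-/- mice, on 4 arrays, was compared with tissue of wild-type mice, on 5 arrays. All samples were male C57BL mice aged 78 weeks kept on normal chow, and choroid plexus was taken by laser capture from fresh-frozen tissue. The labels give no targeting construct, no backcross and no number of animals per capture, so each p-value reflects only how far these arrays spread, a spread that may be technical, and precision is limited by their number.

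Secretory cells fold their exported and membrane proteins in the ER, and the unfolded protein response raises folding capacity when that load is too high. It has 3 sensors in the ER membrane. IRE1, encoded by Ern1, is an RNase that splices the Xbp1 messenger so that it encodes an active transcription factor. ATF6 is cut in the Golgi and releases a transcription factor, and PERK, encoded by Eif2ak3, phosphorylates a translation initiation factor, which slows translation while Atf4 is translated more. Choroid plexus epithelium is highly secretory, with transthyretin among its main products.

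As a check on the labels, Apoe had a deposited signal of 12.2 to 53.8 in apoE-/- samples, called present on 0 arrays, against 18252 to 23953.1 in wild-type samples, called present on 5. Each array detected 44.0% to 49.1% of its probe sets. Choroid plexus epithelial markers were measured for 12 of 14 listed genes. Their summed signal was 159000 to 193700 in apoE-/- samples and 153000 to 185500 in wild-type samples. By limma 0 of the 12 were called in either direction (1 at an unadjusted p under 0.05), and 0 were absent from all arrays. Wild-type replicate 1 stood apart in markers of other brain cells. Relative to the mean of all 9 arrays it read 0.60 on the log2 scale for 7 neuron genes and 1.06 for 3 oligodendrocyte genes, the highest of any array for both lists. Where leaving this array out changes the call of a member probe set, the value without it is given.

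Many genes of the response carry an ER stress response element (ERSE) before their start, which ATF6 and XBP1 are known to bind together with the factor NF-Y. The letters CCAAT and CCACG with 9 bases of any kind between them were searched on both strands in the 250 bases before each start in the RefSeq promoter table (build GRCm38.p6). They were found in 0.113% of all 32851 promoters and in 9 of the 29 member genes that the table holds: Calr, Canx, Creld2, Derl3, Dnajc3, Hsp90b1, Hspa5, Pdia6 and Syvn1. The shorter ERSE-II, ATTGG and CCACG with 1 base between them, was found in 0.0304% of promoters and in Herpud1 alone among the members. The letters TGACGTGG, the unfolded protein response element, were in 0.563% of promoters and in 0 members. TGATGNAA, the core of the element bound by ATF4, was in 3.45% of promoters and in 3 members, Asns, Chac1 and Herpud1. None of the 4 overlapped another in the members. The members had been chosen as genes of the response, so these counts describe them and are not evidence of regulation here. The following 60-base stretches are shown for genes whose readings on these arrays are set side by side below. Tested genes with the ERSE letters had log2 differences, apoE-/- minus wild-type, from -1.02 for Creld2 to 0.06 for Canx. By limma 0 of them were called, and differences among them were not tested. The stretches are 60 bases long. They are written 5′ to 3′ on the strand of the gene, with the element in capitals. In Creld2 it lies on the opposite strand and so reads as its reverse complement.
Creld2, chr15:88819500-88819559, plus strand: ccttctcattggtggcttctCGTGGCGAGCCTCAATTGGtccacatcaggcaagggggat
Syvn1, chr19:6046512-6046571, plus strand: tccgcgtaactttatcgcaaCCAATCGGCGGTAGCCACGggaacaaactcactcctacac
Hspa5, chr2:34772005-34772064, plus strand: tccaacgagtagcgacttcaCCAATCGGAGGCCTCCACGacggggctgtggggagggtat
Pdia6, chr12:17266471-17266530, plus strand: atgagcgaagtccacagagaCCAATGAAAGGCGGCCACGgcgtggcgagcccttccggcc
Dnajc3, chr14:118937807-118937866, plus strand: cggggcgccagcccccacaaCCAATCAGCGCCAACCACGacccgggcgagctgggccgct
Canx, chr11:50325779-50325838, minus strand: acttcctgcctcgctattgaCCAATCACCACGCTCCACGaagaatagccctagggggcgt
Herpud1 (ERSE-II), chr8:94386353-94386412, plus strand: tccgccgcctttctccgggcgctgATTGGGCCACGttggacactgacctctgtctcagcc

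Across the members, the transcription factor Xbp1 and the ER chaperone Hyou1 were called lower in apoE-/- choroid plexus and no member was called higher. Of the 86 probe sets, 68 passed the filter (a present call on 4 or more arrays of 9) and were tested, covering 33 genes. The other 18 included every probe set of Trib3 and Derl3. Of the 68, 42 read lower, 61.8% against 49.8% of all. The calls were 5 lower, 3 of Xbp1 and 2 of Hyou1, which is 7.35% against 1.92% of all 21478 tested probe sets (limma, Benjamini-Hochberg adjusted p under 0.05 over all of them). Of these, Hyou1 1423290_at passed the filter only through wild-type arrays, which favoured the call, and without it 4 of 67 were lower, 5.97%. None was higher by limma, against 0.67% of all, and 2 were higher at an unadjusted p under 0.05, 2.94% against 7.23%. At that unadjusted threshold 14 were lower, 20.6% against 9.3% of all. The 68 had a median log2 difference of -0.09, apoE-/- minus wild-type, beside 0.0014 over all tested probe sets. With the brightest probe set of each gene, 23 of 33 read lower, 69.7% against 46.6% of 11089 genes, and 2 were called lower, 6.06% against 0.866%. On that basis 9 were lower at an unadjusted p under 0.05, 27.3% against 6.83%, and 0 higher, against 7.99%. The groups did not overlap, on the lower side, for 4 probe sets, 5.88% against 4.17% of all, a share close to that background. In this dissected tissue, fewer cells of a type and less RNA per cell cannot be told apart. The count of 5 depended on single arrays. Dropping apoE-/- replicate 2 left 2 and dropping apoE-/- replicate 3 left 1, while dropping wild-type replicate 2, 3 or 4 left 3. Calls over all tested probe sets fell too. The lower share was 1.56% without apoE-/- replicate 2 and 0.964% without apoE-/- replicate 3, against 1.92%. It was 1.28%, 1.62% and 0.992% without wild-type replicates 2, 3 and 4. Dropping wild-type replicate 1 gave 7 member probe sets, where 1.49% of all were lower. Creld2, Manf and Herpud1 were gained and 1 Hyou1 probe set lost.

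The IRE1 arm was represented by its factor, Xbp1, and its sensor, Ern1. The brightest Xbp1 probe set, 1437223_s_at, had signals of 7680.8, 8058.2, 6499.7 and 8462.2 in apoE-/- replicates 1 to 4, against 11212.3, 13494.1, 15304.6, 13883.8 and 11431.6 in wild-type replicates 1 to 5. Every apoE-/- array lay below every wild-type array. The signal averaged 7675 ± 846 in 4 apoE-/- samples, against 13070 ± 1730 in 5 wild-type samples (SD). After quantile normalization of the log2 signals the difference was -0.76 ± 0.10 (SE), a fold of 1.70 (limma, adjusted p = 0.00123), and it passed with any 1 array left out (adjusted p 0.000262 to 0.00606).

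The next Xbp1 probe set, 1420886_a_at, read 5413.7, 5934.9, 5384.2 and 6350.1 in apoE-/- samples, against 6651.9, 9495.1, 12149.2, 10118.4 and 10074.3 in wild-type samples. The groups were again separate, with wild-type replicate 1 the closest to the apoE-/- arrays. Its log2 difference was -0.72 ± 0.14 (SE, adjusted p = 0.0141). The call was lost without apoE-/- replicate 3 (adjusted p = 0.0528), and the difference was -0.86 (adjusted p = 0.000262) without wild-type replicate 1. Probe set 1420011_s_at read 2067.2, 2090.4, 1823.9 and 2727.2 in apoE-/- samples, against 2606.1, 3213.5, 4020.6, 3403.1 and 3415 in wild-type samples. Here apoE-/- replicate 4 lay above wild-type replicate 1. The difference was -0.61 ± 0.13 (SE, adjusted p = 0.025), and its adjusted p with 1 array left out ranged from 0.00802 to 0.098, being 0.0109 without wild-type replicate 1.

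The fourth Xbp1 probe set, 1420012_at, did not pass. It read 1180.5, 1035.2, 1066.7 and 1301.4 in apoE-/- samples and 850.4, 1619.1, 916.1, 1535.1 and 1749.3 in wild-type samples. Wild-type replicates 1 and 3 were lower than all 4 apoE-/- arrays and the other wild-type arrays were higher than all 4. The difference was -0.15 (95% interval -0.57 to 0.26). Between this probe set and the brightest, the difference within arrays was -0.61 between genotypes (exact permutation p = 0.0397, two-sided, 0.174 adjusted over the 35 pairs of probe sets compared). Positions of the probes on the Xbp1 messenger were not used, so spliced and unspliced forms were not told apart.

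Ern1 itself showed no call. Its brightest tested probe set, 1437119_at, had signals of 1008.1, 903.4, 933 and 856.1 in apoE-/- samples and 820, 934.5, 813.5, 966 and 890.2 in wild-type samples. The groups were interleaved, and the log2 difference was 0.07 (95% interval -0.15 to 0.29, adjusted p = 0.796). Both other tested Ern1 probe sets were dim, called present on 4 and 6 of 9 arrays, and read -0.38 (interval -1.01 to 0.26) and -0.18 (interval -0.71 to 0.35).

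**Figure D1:**
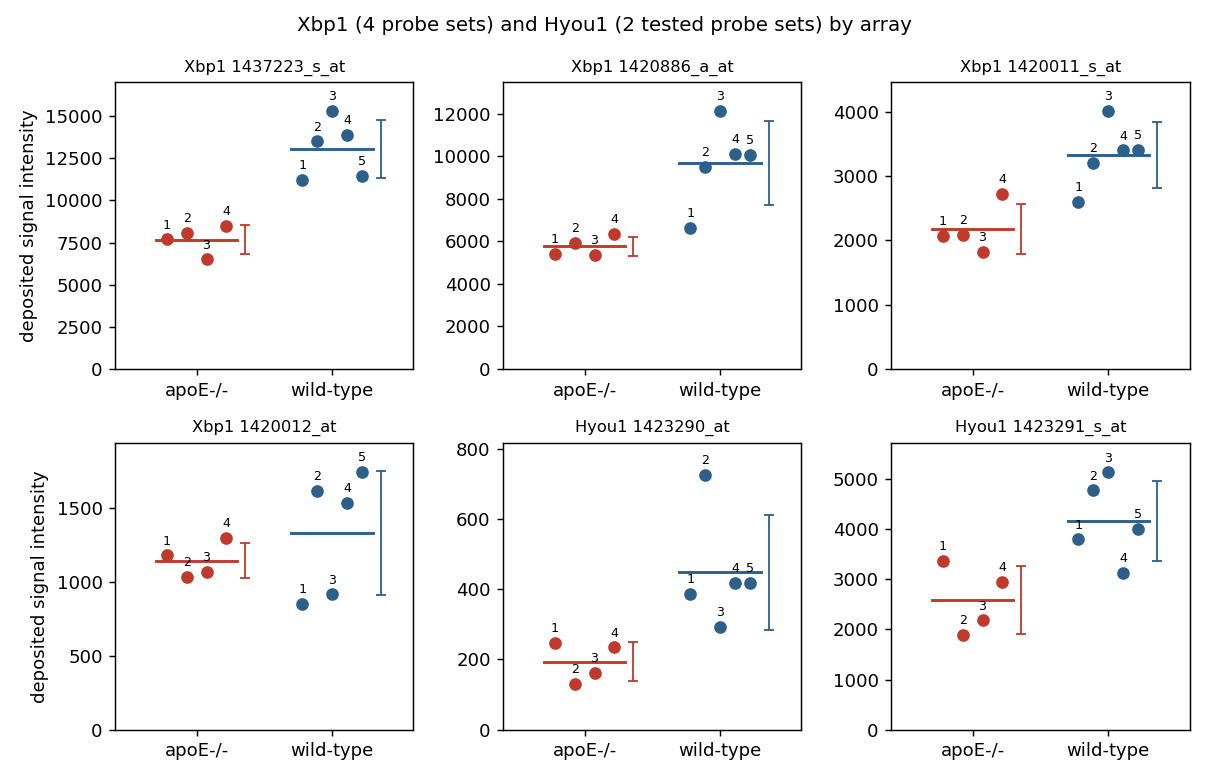
Deposited signal intensity (linear axis from 0) on each array for the 4 probe sets of Xbp1 and the 2 tested probe sets of Hyou1. Points are arrays with their replicate numbers, horizontal lines are group means and bars are SD (n = 4 apoE-/-, n = 5 wild-type). The apoE-/- points lie below all wild-type points for Xbp1 1437223_s_at and 1420886_a_at and for Hyou1 1423290_at, and overlap them in the other panels.

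Atf6, sensor and factor of the second arm, was not called. Its brightest probe set, 1435444_at, read 1574.9, 1556.5, 1522.8 and 1467.2 in apoE-/- samples and 1185.6, 1476.7, 1381, 1396.5 and 1543.6 in wild-type samples. Wild-type replicates 2 and 5 lay within the apoE-/- range and the other wild-type arrays below it. The difference was 0.15 (95% interval -0.06 to 0.35, adjusted p = 0.475), and the other tested probe set read 0.36 (interval -0.24 to 0.96).

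In the PERK arm, Eif2ak3, the sensor kinase, read 965.6, 995.4, 1267.4 and 989.8 in apoE-/- samples and 849, 1048.7, 957.3, 1111.3 and 1113.7 in wild-type samples. The arrays overlapped, apoE-/- replicate 3 being the highest, and the difference was 0.06 (95% interval -0.20 to 0.31, adjusted p = 0.855). Its sign turned when apoE-/- replicate 3 or wild-type replicate 1 was dropped, and with a covariate for neuron and oligodendrocyte markers. Atf4, the factor whose translation PERK favours, was read by 2 tested probe sets. The first, 1438992_x_at, read 2123.2, 1524.8, 1447.7 and 3081.1 in apoE-/- samples and 2725.7, 2112, 1951, 2653.4 and 2215.6 in wild-type samples. The apoE-/- arrays spanned more than the wild-type range at both ends, and the difference was -0.24 (95% interval -0.63 to 0.16). The second, 1448135_at, read 1804.5, 1834.6, 2195 and 2152.9 in apoE-/- samples and 1741, 1564.6, 2152.3, 1960 and 2219.9 in wild-type samples, with a difference of 0.06 (interval -0.19 to 0.31).

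Downstream of that arm, 0 of 4 tested targets were called by limma, and 0 had an unadjusted p under 0.05. Ddit3, also called CHOP, a factor linked to cell death under lasting ER stress, read 426.1, 493.9, 600.6 and 522.9 in apoE-/- samples and 425.2, 465.1, 588.2, 536.8 and 621.9 in wild-type samples. The ranges were nearly the same, and the difference was -0.07 (95% interval -0.37 to 0.24, adjusted p = 0.863), with its sign turned to 0.017 without apoE-/- replicate 1. Ppp1r15a, the phosphatase subunit that ends the translational block, read 0.14 (interval -0.19 to 0.47). Chac1, an enzyme that breaks down glutathione, read 0.12 (interval -0.31 to 0.55). Asns, asparagine synthetase, read 0.010 (interval -0.65 to 0.66) by a dim probe set. The difference between Xbp1 and the PERK arm was not itself tested.

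Among the 9 chaperones and co-chaperones, Hyou1, a large HSP70-type chaperone and nucleotide exchange factor of the ER, was the only gene called. Probe set 1423291_s_at read 3362.7, 1887.4, 2178.9 and 2937.7 in apoE-/- samples, against 3791.3, 4769.5, 5128.2, 3132.1 and 3999.7 in wild-type samples. Only apoE-/- replicate 1 rose above the lowest wild-type array, replicate 4. It averaged 2592 ± 678 in apoE-/- samples, against 4164 ± 795 in wild-type samples (SD, 4 and 5 arrays), a log2 difference of -0.68 ± 0.16 (SE, limma adjusted p = 0.0391). With 1 array left out the adjusted p was 0.022 to 0.14, and it stayed under 0.05 in 3 of those 9 fits, which dropped replicate 1 or 4 of the apoE-/- samples or replicate 4 of the wild-type samples. Without wild-type replicate 1 the difference was -0.71 (adjusted p = 0.0537). The adjusted p was 0.0819 with the neuron and oligodendrocyte covariate, and 0.0803 with the replicate block.

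The dimmer Hyou1 probe set, 1423290_at, read 246.4, 131.2, 162.5 and 234 in apoE-/- samples, called present on 0 arrays, against 387.4, 725.6, 291.6, 417.9 and 417.3 in wild-type samples, called present on 4. All apoE-/- arrays lay below all wild-type arrays. It passed the filter only through wild-type arrays, so that some difference was built into its selection, and no other member probe set tested was of this kind. It was at least 2.37-fold lower in apoE-/- samples, with a 95% interval of -1.80 to -0.69 around the log2 difference of -1.25 (limma, adjusted p = 0.0201, and 0.0168 to 0.0748 with 1 array left out). Here 2.37 is the fitted fold itself. It is a bound only in that the apoE-/- signals were not called present, and the interval gives the spread between arrays. The call ended when replicate 2 or 3 of the apoE-/- samples or replicate 4 of the wild-type samples was dropped, and with the marker covariate (adjusted p = 0.064).

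Hspa5, also called BiP, the main HSP70 chaperone of the ER and the usual marker of the response, gave readings of both signs. Its brightest probe set, 1416064_a_at, read 21201.8, 22559.6, 15205.9 and 18974.6 in apoE-/- samples and 21784.5, 26710, 25382.4, 21761.6 and 17176.5 in wild-type samples. The groups overlapped, apoE-/- replicate 3 being the lowest of all. The difference was -0.23 ± 0.10 (SE, adjusted p = 0.275). Probe set 1427464_s_at read 10351.6, 9998, 7066.7 and 12875.2 in apoE-/- samples and 9890.7, 15768.4, 15429, 12227.8 and 11062.4 in wild-type samples, a difference of -0.35 ± 0.16 (SE, adjusted p = 0.273). Probe set 1447824_x_at went the other way, with 2057.6, 2532.6, 2233 and 2005.1 in apoE-/- samples, against 1889.7, 2237.6, 1549.5, 1948.9 and 1466 in wild-type samples. Its difference was 0.31 ± 0.13 (SE, adjusted p = 0.261). Endings _x_at and _s_at mark probe sets whose probes can match other transcripts too. The same limit holds for the called Xbp1 1437223_s_at and 1420011_s_at and Hyou1 1423291_s_at, and for Syvn1 1443609_s_at below. For Hspa5, the brightest and the _x_at probe set differed within arrays by -0.54 between genotypes (exact permutation p = 0.0317, 0.174 adjusted over 35 pairs).

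The other chaperones gave 0 calls. Calr, the lectin chaperone calreticulin, read -0.014 by its brightest probe set, 1417606_a_at, and -0.25 (unadjusted p = 0.0391, adjusted p = 0.272) and -0.19 by 2 _x_at sets. Signals of Calr 1433806_x_at were 9137.5, 8055.3, 6379.1 and 8339 in apoE-/- samples and 8224.7, 11262.3, 10404.9, 9567.6 and 8210.6 in wild-type samples. They overlapped, with wild-type replicates 1 and 5 inside the apoE-/- range. Canx, its membrane-bound relative calnexin, read 0.06, 0.08 and -0.22 by its 3 probe sets. Hsp90b1, the ER form of HSP90 known as GRP94, read -0.17 (95% interval -0.38 to 0.04) and 0.0020. Of the co-chaperones that steer Hspa5, Dnajb9 read -0.07 and Dnajb11 -0.19. Dnajc3, an inhibitor of PERK, read between -0.09 and 0.23 over 5 probe sets, and Hspa13 read 0.14 and -0.14. Disulfide isomerases, the enzymes that form and shuffle disulfide bonds, gave 0 calls and 0 unadjusted p under 0.05 over 6 probe sets. They ran from -0.17 for a Pdia3 probe set to 0.16 for P4hb.

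The small ER stress proteins Creld2, Manf and Sdf2l1 had the largest uncalled differences, and in each of them wild-type replicate 1 lay with the apoE-/- arrays. Creld2, an ER protein with a disulfide isomerase activity, read 1479.4, 1742.5, 970.8 and 1859.9 in apoE-/- samples, against 1542.2, 4959, 4254.6, 2812.5 and 2688 in wild-type samples. Every wild-type array but replicate 1 was above every apoE-/- array. It averaged 1513 ± 395 in apoE-/- samples, against 3251 ± 1360 in wild-type samples (SD, 4 and 5 arrays), and the log2 difference was -1.02 ± 0.27 (SE, limma adjusted p = 0.0671). Without wild-type replicate 1 it was -1.25 (adjusted p = 0.00992), and the range with any 1 array left out was 0.00992 to 0.225.

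Manf, a secreted protein that is retained in the ER and released under stress, read 5527.8, 6392.7, 3924.3 and 7008.8 in apoE-/- samples, against 5196, 12467.7, 11142.3, 8093.6 and 8349.9 in wild-type samples. The same 4 wild-type arrays were above every apoE-/- array. The difference was -0.62 ± 0.21 (SE, adjusted p = 0.153), and -0.80 (adjusted p = 0.0201) without wild-type replicate 1. The adjusted p reached 0.417 with another array left out. Sdf2l1, which keeps Hspa5 clients from aggregating, read 2130.4, 1609.9, 1511.5 and 1979.5 in apoE-/- samples, against 1735.9, 2866.6, 3551.5, 2566.3 and 2188.1 in wild-type samples. It followed the same order, with wild-type replicate 1 inside the apoE-/- range, and its difference was -0.48 ± 0.17 (SE, adjusted p = 0.167, and 0.0537 to 0.415 with 1 array left out).

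**Figure D2:**
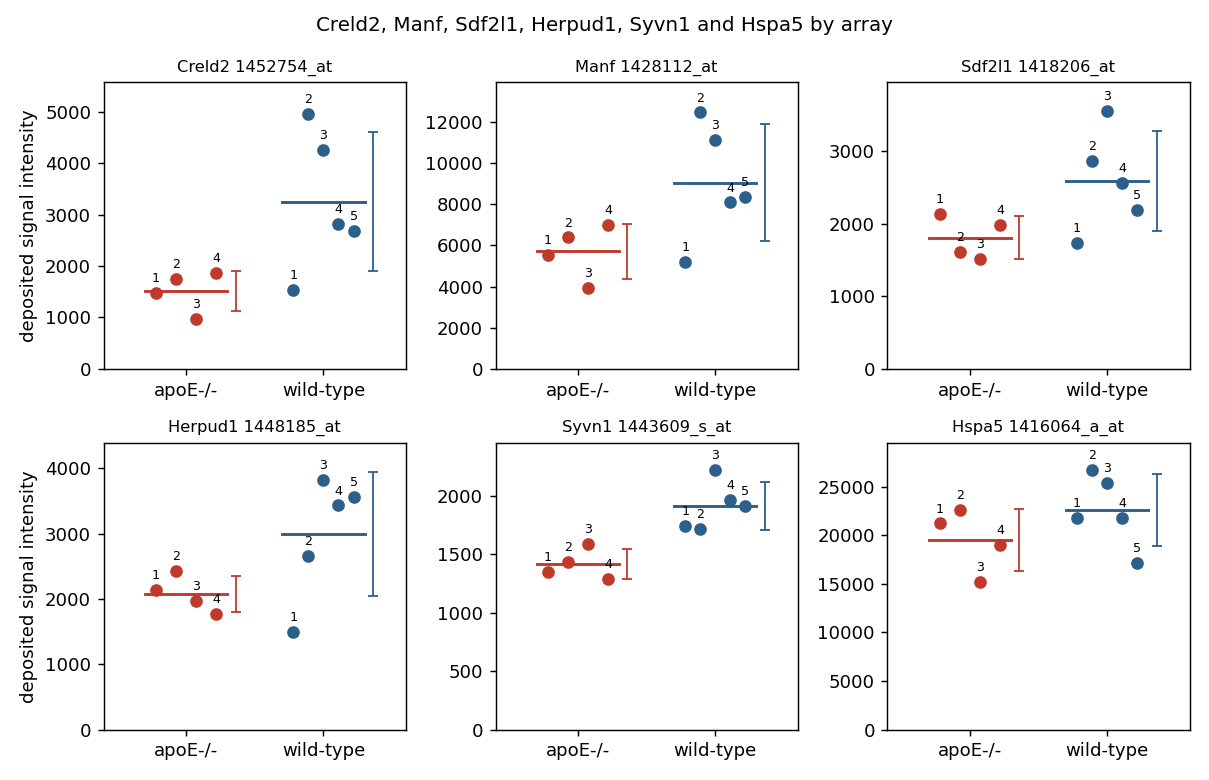
Deposited signal intensity (linear axis from 0) on each array for Creld2, Manf, Sdf2l1, Herpud1, Syvn1 and Hspa5. Points are arrays with their replicate numbers, horizontal lines are group means and bars are SD (n = 4 apoE-/-, n = 5 wild-type), each gene by its probe set with the smallest p and Hspa5 by its brightest. Wild-type replicate 1 lies among the apoE-/- points for Creld2, Manf and Sdf2l1 and below them for Herpud1, while for Syvn1 all apoE-/- points lie below all wild-type points.

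ER-associated degradation, which pulls misfolded proteins out of the ER for the proteasome, gave 0 calls over 15 probe sets of 6 tested genes, with 3 lower and 1 higher at an unadjusted p under 0.05, 20% and 6.67% against 9.3% and 7.23% of all tested probe sets. Syvn1, also called HRD1, its central ubiquitin ligase, came nearest. Probe set 1443609_s_at read 1347.5, 1437.1, 1591.1 and 1291.5 in apoE-/- samples, against 1742.1, 1720.2, 2223.3, 1968.4 and 1913.3 in wild-type samples. All apoE-/- arrays were below all wild-type arrays, and the difference was -0.42 ± 0.11 (SE, adjusted p = 0.0504). It passed under 5 other settings, among them no further normalization (adjusted p = 0.0442), scaling to the 75th percentile (0.0313) and cyclic loess (0.0474), and stayed at 0.0574 to 0.138 with 1 array left out. The other Syvn1 probe set read -0.18 (95% interval -0.41 to 0.04).

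Herpud1, an ER membrane protein that organises the degradation complex, was read by 2 probe sets. Probe set 1448185_at had 2133.3, 2434.6, 1969.8 and 1768.6 in apoE-/- samples, against 1490.1, 2658.8, 3824.9, 3431.6 and 3560.3 in wild-type samples. Wild-type replicate 1 was the lowest of all 9 arrays and the other wild-type arrays were the 4 highest. The difference was -0.46 ± 0.22 (SE, adjusted p = 0.313), and -0.68 (adjusted p = 0.0172) without wild-type replicate 1. With the neuron and oligodendrocyte covariate it was -0.80 (adjusted p = 0.00934), while the range with 1 array left out reached 0.534. Its other probe set, 1435626_a_at, read -0.23 (95% interval -0.63 to 0.17).

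Sel1l, the adaptor of Syvn1, and the derlins Derl1 and Derl2, channel proteins of the complex, differed between probe sets. The brightest Sel1l probe set, 1436774_at, read 2852.6, 2991.5, 2518.7 and 2446.6 in apoE-/- samples and 3243.1, 3803.6, 3553.5, 3237.5 and 2954.7 in wild-type samples, with only wild-type replicate 5 below the highest apoE-/- array. It read -0.29 (adjusted p = 0.138), while 3 others read 0.09, -0.23 and 0.19. Derl1 1415693_at read 2433.1, 2397.7, 2302.6 and 2310.3 in apoE-/- samples and 1838.1, 2190.5, 1902.5, 2075 and 2256.4 in wild-type samples. It alone of the 68 had all apoE-/- arrays above all wild-type arrays, where 2.72% of all tested probe sets did, at 0.22 (adjusted p = 0.218). The brightest Derl1 probe set read -0.15. Derl2 1448438_at read 1320.7, 1279.7, 1012.3 and 1218.5 in apoE-/- samples and 1257.7, 1782.3, 1403.5, 1450 and 1625.9 in wild-type samples, with only wild-type replicate 1 inside the apoE-/- range. Its difference was -0.30 (adjusted p = 0.215, or 0.145 with wild-type replicate 1 left out) and the other Derl2 probe set 0.16. Edem1, which marks glycoproteins for removal, read 0.07, and the translocon subunits Sec61a1 and Sec61b ran from -0.18 to 0.08 over 6 probe sets with 0 calls.

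**Figure D3:**
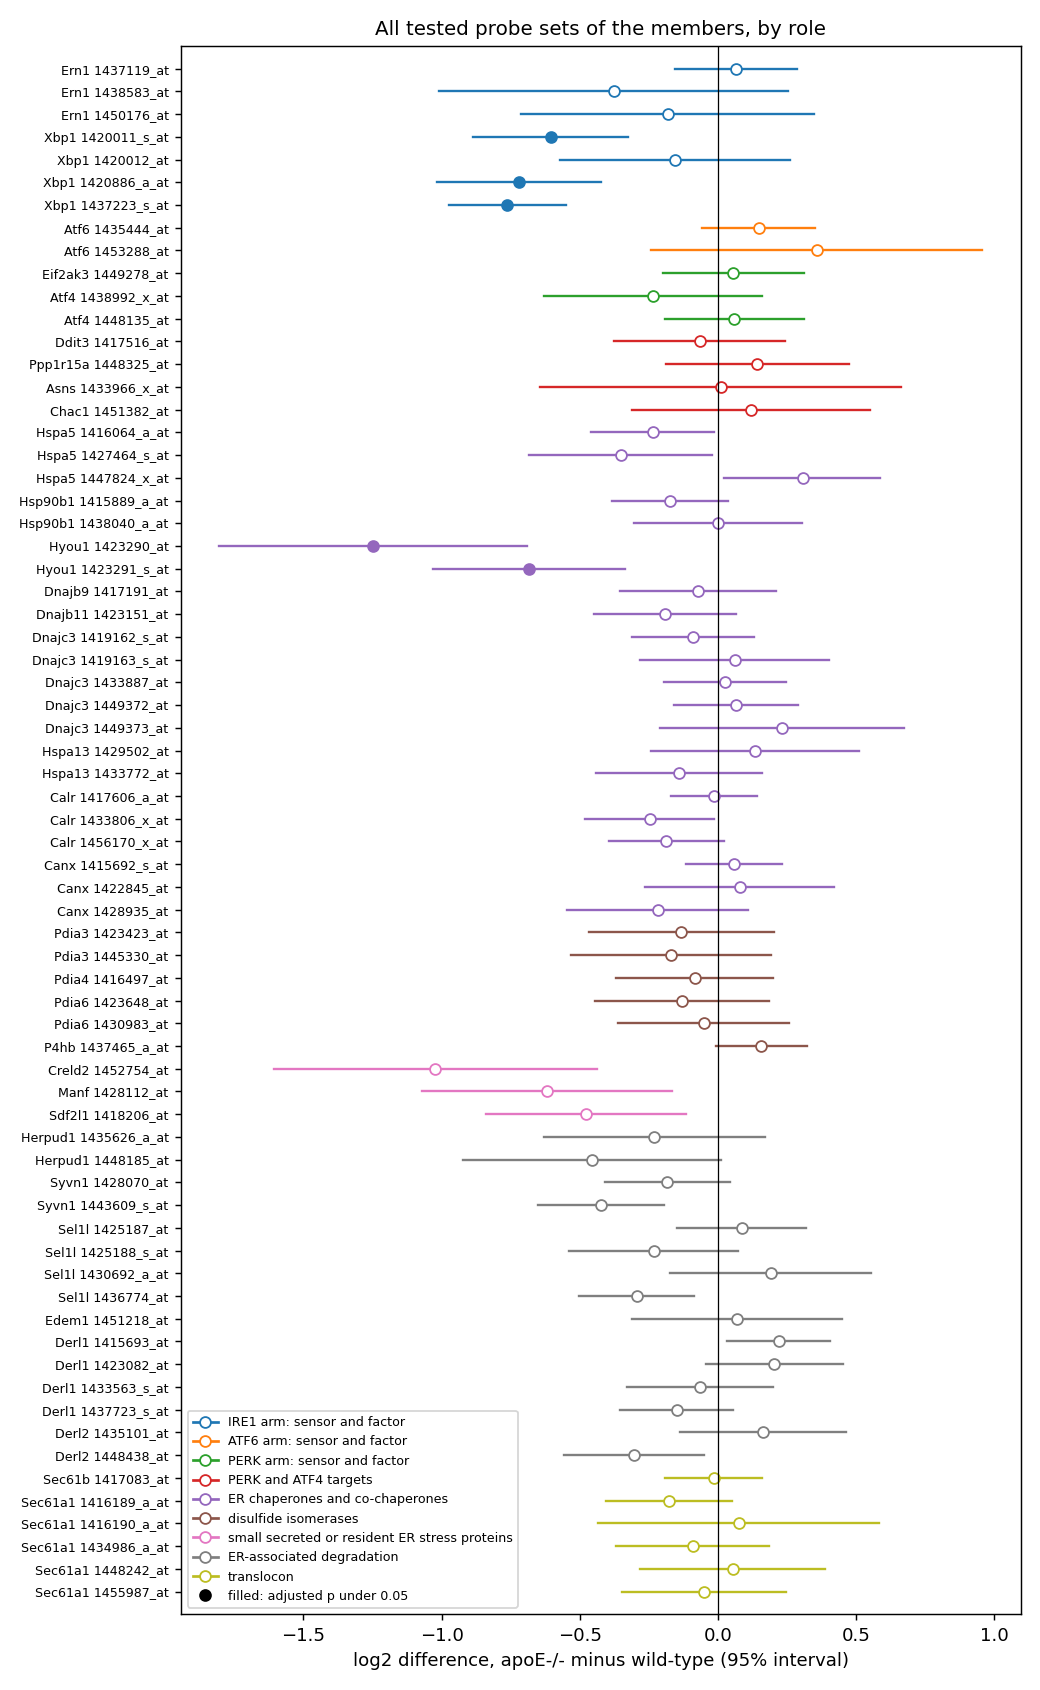
Log2 difference, apoE-/- minus wild-type, with its 95% interval for each of the 68 tested probe sets, coloured by role. Filled points have a limma adjusted p under 0.05: 3 of Xbp1 and 2 of Hyou1, all lower, while both points of the ATF6 arm lie above 0 and those of the PERK arm on both sides of it, all with intervals that include 0.

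Differences between probe sets of a gene were compared within arrays. No pair passed after adjustment, which a lone pair could not have done in this design. In 19 genes with more than 1 tested probe set, the brightest was set against each other one within arrays, 35 pairs in all. Two-sided exact permutation tests over every way to split the arrays into 4 and 5 gave 8 pairs with an unadjusted p under 0.05 and 0 after adjustment (smallest p = 0.00794, the smallest this design allows, for Syvn1, and 0.174 adjusted). The 8 were 1 pair each of Xbp1, Hspa5, Syvn1, Sel1l, Derl1 and Derl2 and 2 of Calr. As no p could be smaller than 0.00794, a lone pair could not pass after adjustment over 35 pairs. The lack of a pass therefore does not show that the probe sets of a gene moved alike.

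Genes with the ERSE letters had a wide range of values. Of the 9 members that hold them, 8 were tested, 6 read lower by their brightest probe set, and the median difference was -0.15, from -1.02 for Creld2 to 0.06 for Canx, with 0 called by limma. Of the 20 members whose listed promoter lacks these letters, 19 were tested, 12 read lower, and the median was -0.07, from -0.76 for Xbp1 to 0.16 for P4hb, with 1 called. The promoter table did not hold the other 6 members, Atf6, Hyou1, Hspa13, Manf, Derl1 and Sec61a1. Hyou1, called lower, and Manf were therefore in neither group. Canx, Dnajc3, Pdia6 and Creld2 carry the element within the same window, as the stretches above show, and read 0.06, 0.03, -0.13 and -1.02. After Creld2, the lowest gene with the letters was Syvn1 at -0.42. Differences among these genes were not tested.

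Array by array, the small ER stress proteins spread the most of the roles. Means of Creld2, Manf and Sdf2l1, relative to all 9 arrays, were -0.33, -0.28, -0.83 and -0.12 in apoE-/- replicates 1 to 4, against -0.42, 0.77, 0.74, 0.26 and 0.21 in wild-type replicates 1 to 5. Chaperone means were 0.01, -0.14, -0.26 and 0.04 in apoE-/- samples and -0.14, 0.25, 0.06, 0.11 and 0.07 in wild-type samples. ApoE-/- replicate 3 was the lowest apoE-/- array for 15 of the 33 brightest probe sets, and wild-type replicate 1 the lowest wild-type array for 18 of 33. In wild-type replicate 1 the neuron and oligodendrocyte markers were also highest. Summed signals of the 7 tested of 10 neuron markers were 964 to 1305 in apoE-/- samples and 1089 to 1931 in wild-type samples, with Nefm, Camk2a and Tubb3 present on no array. For the 3 tested of 7 oligodendrocyte markers they were 2279 to 3990 in apoE-/- samples and 2408 to 8800 in wild-type samples, with Mog and Mag present on no array. With the mean of these markers as a covariate, 5 member probe sets were lower, the 3 of Xbp1 with Creld2 (-1.26, adjusted p = 0.0412) and Herpud1. In that fit 1.16% of all tested probe sets were called lower.

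**Figure D4:**
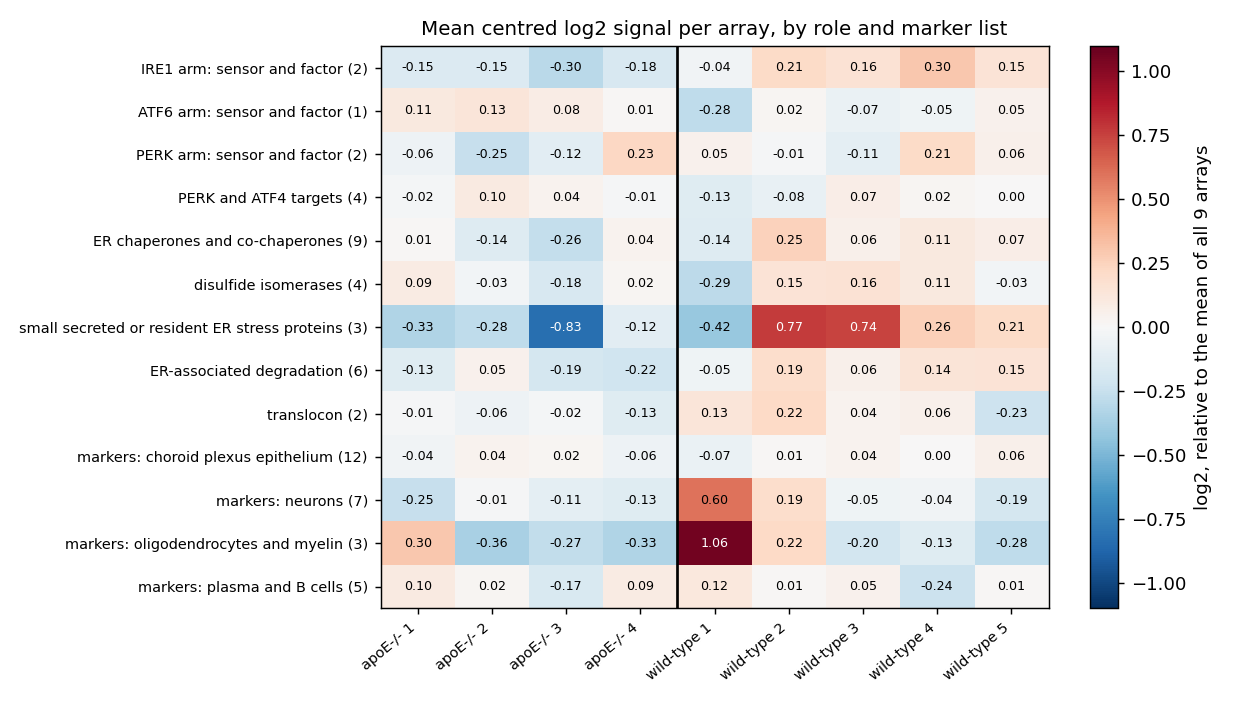
Mean log2 signal of each role and of 4 marker lists on each array, relative to the mean of all 9 arrays (apoE-/- left of the line, wild-type right, number of genes in brackets, 1 probe set per gene). Wild-type replicate 1 reads -0.42 for the small ER stress proteins where the other wild-type arrays read 0.21 to 0.77, and it holds the highest neuron (0.60) and oligodendrocyte (1.06) values.

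Markers of other cells were set beside these results. Plasma and B cells, which depend on Xbp1 for secretion, were near the detection limit: 8 of 10 markers were on the array, 5 were tested with 0 called, Cd79a, Cd79b and Tnfrsf17 were present on no array, and the summed signal was 1170 to 1472 in apoE-/- samples and 1168 to 1522 in wild-type samples. Macrophage markers read higher in apoE-/- tissue, 6 of 6 tested of 9 listed, with Cd14 and Itgam present on no array. By limma 1 was called, where 0.794% of 11089 genes were called higher. At an unadjusted p under 0.05 there were 3 higher, 50% against 7.99%. In 2 of them the groups did not overlap, on the higher side, 33.3% against 3.38%. The summed signal of the macrophage markers was 6950 to 10290 in apoE-/- samples and 5379 to 8832 in wild-type samples. The count of 1 called was 0 without apoE-/- replicate 3 and 3 without apoE-/- replicate 4. In those fits 0.261% and 1.1% of all tested probe sets were called higher, against 0.67% in the main fit. Astrocyte markers also read higher, 5 of 5 tested with 0 called by limma and 1 at an unadjusted p under 0.05, 20% against 7.99%. Their summed signal was 5717 to 6343 in apoE-/- samples and 4616 to 5648 in wild-type samples, without overlap. The part of macrophages and astrocytes in the results was not tested. Of 5 ependyma and 6 endothelial markers tested 0 were called by limma. Ependyma markers read higher for 4 of 5, with 2 higher at an unadjusted p under 0.05, 40% against 7.99%. The part of ependyma was not tested either. Endothelial markers had 1 lower and 1 higher at that threshold, 16.7% each against 6.83% and 7.99%. Of 8 fibroblast and pericyte markers 1 was called higher, where 0.794% of 11089 genes were. Among the fits with 1 array left out, that call was kept only without apoE-/- replicate 1.

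Genes outside the members, from 6 lists of ER, secretory and integrated stress response genes, gave few calls. Of 109 tested with their brightest probe set, 1 was lower and 0 were higher by limma, against 0.866% and 0.794% of 11089 genes, with 5 lower and 9 higher at an unadjusted p under 0.05, 4.59% and 8.26% against 6.83% and 7.99% of those genes. The lower gene was Dnajc1, an ER membrane co-chaperone, at -0.59 ± 0.15 (SE, adjusted p = 0.0484), with separate groups. That call was lost in 8 of the 9 fits that left out 1 array and kept without wild-type replicate 5. In the folding list Ppib, an ER prolyl isomerase, read -0.25 (adjusted p = 0.127) and Erp44, a thioredoxin-like retention factor, -0.28 (adjusted p = 0.258). Among other degradation genes Ubxn4 read -0.36 (adjusted p = 0.0504), with separate groups, while Selenok and Ube2j2 read 0.21 and 0.24 (adjusted p = 0.168 and 0.2). In ER to Golgi transport Kdelr1, a receptor that returns ER proteins, read -0.48 (adjusted p = 0.137), and the coat proteins Sec13 and Copb2 0.26 and 0.34. The smallest p among translocon and glycosylation genes were those of Stt3b (-0.15), Srprb (-0.26) and Spcs1 (0.096), and among further sensors and membrane factors those of Mbtps1 (0.17), the protease that cuts ATF6, Map3k5 (0.16) and Tmbim6 (0.11).

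Of the integrated stress response genes, 15 of 21 tested read higher, with 0 called by limma. At an unadjusted p under 0.05 there were 2 higher, 9.52%, near the 7.99% of all genes, and 28.6% read lower against 46.6%. Eif2ak2, the kinase PKR, which is induced by interferon, read 0.95 ± 0.31 (SE, adjusted p = 0.128), the seryl-tRNA synthetase Sars read 0.40 (adjusted p = 0.144), and Cebpb 0.25. Across the 6 lists, other probe sets than the brightest were called lower in 3 genes. The genes were Srp72 of the signal recognition particle (-0.80, adjusted p = 0.0113, brightest 0.107), Kdelr2 (-0.66, adjusted p = 0.00822, brightest -0.11) and Eprs, a tRNA synthetase (-0.91, adjusted p = 0.00762, brightest -0.014). Of all tested probe sets 1.92% were called lower. How many such probe sets these lists held was not counted, so the 3 calls cannot be set against that share.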

How the data were processed

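Total RNA of laser-captured choroid plexus was biotin-labelled and hybridised to 1 array per sample (4 apoE-/-, 5 wild-type). Per the submitters' processing notes the values came from GCOS 1.4. The deposited files hold a linear signal intensity and a detection call per probe set. The trimmed mean (2% at each end) was 500.0 on each array, so the authors' intensities were already scaled. How background was removed and probes were summarised is not stated in the sources used here. The deposited series matrix carries identical values (0 differed). The 9 detection p columns were not used.

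Intensities were taken to log2, and array medians ranged over 0.214, above a limit of 0.1, so they were quantile normalized. Probe sets called present on at least 4 of 9 arrays, without 64 controls, were tested (21478) with limma 3.58.1 in R 4.3.3 (lmFit, eBayes with a mean-variance trend, genotype alone, two-sided, Benjamini-Hochberg over all of them at 0.05). The step was tested on simulated arrays of 21478 probe sets, 200 of them changed. It recovered 34.5% of 1.5-fold, 78.5% of 2-fold and 98.5% of 4-fold changes, with 1, 5 and 9 false calls. A probe set that was not called may therefore still differ by 1.5-fold. Of 45101 probe sets, 34958 had 1 symbol in the platform annotation, 932 several and 9211 were not listed, and 1 probe set shared by a member and another gene was left out. By gene ID 34754 matched the reference gene table of GRCm38.p6. Fold changes and differences are on the log2 scale of normalized intensities, and signals printed per array are the deposited ones.

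The members and lists were chosen with earlier results of these data known. Values on every array are given for the sensors, their factors, Hspa5 and Ddit3, and for members with an unadjusted p under 0.05 or an adjusted p under 0.05 with or without any 1 array. Of each other pathway list the 3 smallest p were named. Same-numbered samples of the 2 groups were not treated as pairs: correlations of their deviations from the group means were 0.16, -0.015, 0.031 and 0.0080, and 1 of 4 was over 0.1. Alternatives were other scalings, filters, an offset of 50, no trend, array weights, a replicate block, a marker covariate of 10 neuron and oligodendrocyte genes, 1 probe set per gene and each array left out.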

Additional observations from a re-analysis of the deposited data

Results flagged for a closer look

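In 50 groups of member values, 2 arrays stood apart from the others of their group by Dixon's gap test, which flags about 1 in 20 groups by chance. Both were apoE-/- replicate 3. For Eif2ak3 its signal was 1267.4, the highest of 4, where the next was 995.4 and the lowest 965.6. For Hspa5 1416064_a_at its signal was 15205.9, the lowest of 4, where the next was 18974.6 and the highest 22559.6. The same array was the lowest apoE-/- array for 15 of the 33 brightest member probe sets.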

How the results depend on the processing

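The number of member probe sets called lower was 5. It was 6 with no normalization beyond the deposited scaling, with the 75th percentile, with cyclic loess and with an offset of 50, 4 among probe sets present on all 9 arrays and 5 with the marker covariate. The lower shares of all tested probe sets were 1.68%, 1.95%, 1.92%, 2.04%, 1.82% and 1.16% in that order, against 1.92% in the main fit. The member count was 2 with no filter on detection calls and 2 with only the brightest probe set of each gene. Both of these settings change how many probe sets are tested. The member count was 1 without the mean-variance trend and 8 with array weights, where the cause was not tested. The share of all called lower moved as well. It was 0.551% with no filter, 0.866% with the brightest probe sets, 1.17% without the trend and 3.29% with array weights. Leaving out 1 array gave 1 to 7 member probe sets, where 0.964% to 2.44% of all were called lower. No member was higher under any of these settings by limma. With the replicate block, over replicates 1 to 4 of both groups, 4 member probe sets were lower, where 1.96% of all tested were. Xbp1 1437223_s_at passed in every setting listed. The median over member probe sets stayed below 0 throughout. Signs turned only for uncalled values near 0. Eif2ak3 read -0.027 with the marker covariate and -0.037 to 0.098 with 1 array left out. Ddit3 read -0.147 to 0.017 with 1 array left out, and Calr 1417606_a_at read 0.010 with cyclic loess and -0.050 to 0.029 with 1 array left out. The cause was not tested. Of the pairs of probe sets, 0 passed after adjustment with or without quantile normalization (8 and 6 at an unadjusted exact p under 0.05). A lone pair could not have passed in either setting. Both minor probe sets of Ern1 were dim and had wide intervals. That of 1438583_at, -1.01 to 0.26, held the 3 called Xbp1 differences. That of 1450176_at, -0.71 to 0.35, held the smallest of these, -0.61, but not -0.72 or -0.76.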

Other observations

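Chaperones outside the ER were read as a further list of cytosolic and mitochondrial heat shock genes, which answer to the heat shock factor and not to the ER sensors. Of 14 tested with their brightest probe set, 12 read lower in apoE-/- choroid plexus, 85.7% against 46.6% of all 11089 genes. The 14 had a median log2 difference of -0.20, and 0 were called by limma. At an unadjusted p under 0.05 there were 4 lower, 28.6% against 6.83%. Hspa8, the constitutive HSP70, read -0.20 (adjusted p = 0.197), Hsph1, its large relative, -0.42 (adjusted p = 0.247), and the small heat shock protein Cryab -0.32 (adjusted p = 0.27). The list mean per array was -0.19, -0.16, -0.37 and 0.33 in apoE-/- replicates 1 to 4 and -0.08, 0.14, 0.07, 0.19 and 0.06 in wild-type replicates 1 to 5, so apoE-/- replicate 4 was the highest of all 9 arrays and the other apoE-/- arrays the 3 lowest. Without apoE-/- replicate 4, 3 of the 14 were called, counted in either direction. In that fit 2.44% of all tested probe sets were called lower and 1.1% higher, against 1.92% and 0.67% in the main fit.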
